A study of Mus musculus with 6 samples.

Results

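Places bound by SMAD1/5 in primed pluripotent cells but not called in naive cells were examined in mouse ChIP-seq peak lists. SMAD1/5 stands for a pair of transcription factors through which bone morphogenetic protein (BMP) signals reach the nucleus. The members were chosen from the calls themselves: overlapping or touching peaks of 4 lists were merged, and a region was kept when it held a peak of epiblast stem cells derived from embryonic stem cells (ESD-EpiSCs, the primed state) and no peak of embryonic stem cells (ESCs, the naive state). This gave 237 of 18623 merged regions, or 237 of the 326 regions with any ESD-EpiSC peak (72.7%, exact binomial 95% interval 67.5 to 77.5). Since the absence of an ESC peak is the rule, this share is a description and not a result.

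The ESCs were of the mouse line E14 and were kept either in LIF+serum or in LIF+BMP-4 (10 ng/ml). The ESD-EpiSCs were derived from E14, kept in N2B27 medium with FGF2 and Activin A on serum-coated plates, and given BMP-4 at 10 ng/ml for 1.5 h or for 24 h. All 4 libraries used the same anti-Smad1 antibody (clone 913C1b). Each condition was 1 library of this 1 line, so nothing below could be set against the spread between replicates, no test was made, and cell state, medium, BMP-4 exposure and library cannot be told apart. ESD-EpiSCs without BMP-4 were not analysed here. The lists hold no expression values, so the labelled cell states could not be checked against marker genes.

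BMP receptors phosphorylate SMAD1, SMAD5 and SMAD9, which join SMAD4 and bind regulatory DNA, often together with other factors of the cell. In naive mouse ESCs BMP signalling acts with LIF to hold back differentiation, in part through the Id genes, which code for inhibitors of basic helix-loop-helix factors. In the primed state, FGF and Activin maintain the cells, and BMP promotes their differentiation. The number of reads per library is unknown here, and a place without an ESC call is not a place shown to lack binding in ESCs. The LIF+serum list held 9387 peaks and the LIF+BMP-4 list 14696, against 225 at 1.5 h and 133 at 24 h. Positions are mm9, and peak sequences are not shown because no mm9 genome was used here.

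Most regions without an ESC peak were called at a single time. Of the 237, 140 had a peak at 1.5 h only, 90 at 24 h only, and 7 at both times. The share at both times was 2.95% (1.20 to 5.99), against 5.21% of all ESD-EpiSC regions. Among the 89 ESD-EpiSC regions with an ESC peak, 10 (11.2%, 5.52 to 19.7) were called at both times. The intervals of the 2 shares overlapped slightly, which is not a test of their difference. In a region with an ESC peak, peaks of the 2 times could also be joined through that peak without meeting each other. The 2 shares are thus not fully alike as measures. Read the other way, regions without an ESC peak made up 71.8% (64.9 to 78.0) of those called at 1.5 h only, 78.9% (70.3 to 86.0) of those called at 24 h only, and 7 of the 17 called at both times (41.2%, 18.4 to 67.1). The share was thus of a like size at each single time and had a lower point value among regions called at both times. Without chromosome 8, which held 3 of them, 4 regions called at both times remained.

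The 7 regions called at both times differed in how closely their 2 peaks coincided. The strongest lay on chromosome 13 at 48323123 to 48323434, with a score of 361.77 at 1.5 h (rank 5 of 225) and 94.65 at 24 h (rank 12 of 133). Its 24 h peak of 151 bp lay wholly inside the 1.5 h peak of 312 bp. The score was assigned to each peak by the authors on a scale that their labels do not state, and it serves here only to order the peaks of a list.

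The region on chromosome 2 at 152565128 to 152565351 had scores of 165.01 (rank 20) and 66.31 (rank 44), and the 24 h peak of 89 bp again lay within that of 1.5 h. The distal part of chromosome 2 is known to hold Id1, a direct target of BMP signalling. That statement is background knowledge; no mm9 annotation was used, and no distance to the gene was measured. The region lay 3.65 kb from the nearest ESC peak, a LIF+serum peak of rank 6344 of 9387 whose region also held an ESD-EpiSC peak. It was therefore a separate call beside a site called in both cell states.

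On chromosome 8, the region at 86400388 to 86400577 was higher in rank at 24 h (19, score 82.34) than at 1.5 h (92, score 65.71), and its 1.5 h peak of 109 bp lay inside the 24 h peak. It stood only 28 bp from a LIF+BMP-4 peak and was the region closest to failing the rule. The other chromosome 8 regions were joined more loosely. At 44492752 to 44492952 the peaks of the 2 times overlapped by 24 bp (ranks 112 at 1.5 h and 120 at 24 h), and at 86704415 to 86704659 by 2 bp (ranks 68 and 110). The latter were neighbouring peaks of 178 bp and 69 bp rather than the same peak.

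Chromosome X held the remaining 2 regions. At 12783715 to 12783971 the peaks overlapped by 41 bp, with ranks of 73 at 1.5 h and 77 at 24 h. At 121285855 to 121285921 they nearly coincided, with an overlap of 53 bp between peaks of 54 bp and 66 bp. This narrow region ranked 55 at 1.5 h (score 89.38) and 7 at 24 h (score 121.64), and it lay 524.52 kb from the nearest ESC peak. In 4 of the 7 regions the shorter peak lay within the other or missed it by 1 bp, and in the other 3 the peaks overlapped by 2 bp to 41 bp at their edges.

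Peaks without an ESC counterpart were found at every level of score. At 1.5 h, 147 of the 225 peaks lay in these regions, and by quintile of score, from the highest to the lowest, their share was 62.2%, 57.8%, 66.7%, 66.7% and 73.3%. The interval of the highest quintile (46.5 to 76.2) and that of the lowest (58.1 to 85.4) overlapped. At 24 h, where 97 of 133 peaks lay in these regions, the shares were 63.0%, 76.9%, 77.8%, 57.7% and 88.9%, with intervals of 42.4 to 80.6 for the highest quintile and 70.8 to 97.6 for the lowest. The border between the 2 highest quintiles at 24 h fell among 8 peaks tied at 77.19, all without an ESC peak, so their split was arbitrary. No steady change across the quintiles was seen at either time. With only ESD-EpiSC peaks scoring at least 100, 31 of 52 regions (59.6%, 45.1 to 73.0) had no ESC peak.

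**Figure D1:**
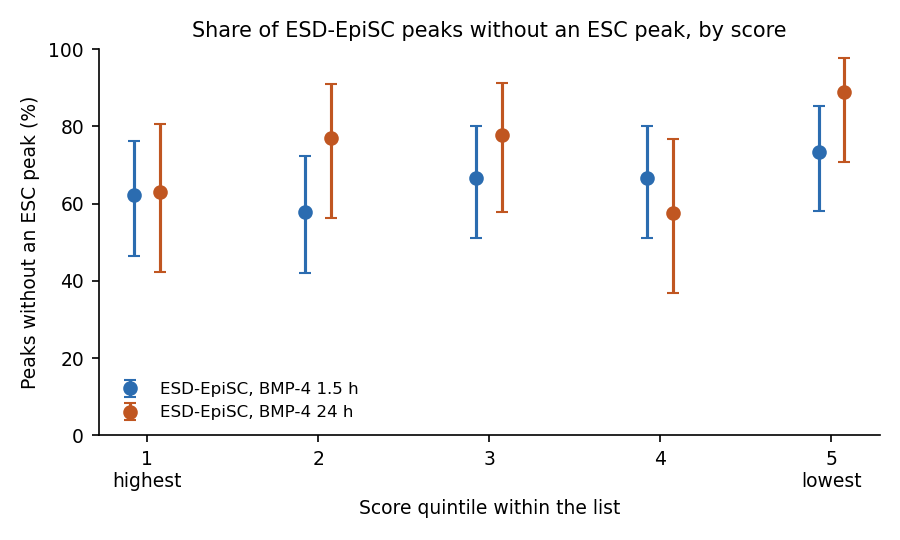
Share of ESD-EpiSC peaks without an ESC peak (y axis, percent) by quintile of score within each list (x axis, 1 is highest), for BMP-4 given for 1.5 h and for 24 h. Points are shares and bars are exact binomial 95% intervals over peaks of 1 library; all points lie between 57.7% and 88.9%.

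At the top of the lists the times differed in number. Of the 10 highest peaks, 7 at 1.5 h (70.0%, 34.8 to 93.3) and 3 at 24 h (30.0%, 6.67 to 65.2) had no ESC peak, and these intervals overlapped. Of the 237 regions, 31 scored 100 or more (13.1%, 9.06 to 18.0), against 16.0% of all ESD-EpiSC regions. Median scores in regions without an ESC peak were 60.4 at 1.5 h (exact interval of the median 58.7 to 63.2, 147 regions) and 59.2 at 24 h (56.3 to 63.2, 97 regions). In regions with an ESC peak they were 63.9 (59.5 to 73.8, 65 regions) and 61.7 (56.1 to 75.8, 34 regions), so the intervals overlapped at each time. The score of a region is that of its highest peak in the list. Regions with an ESC peak could hold several (78 peaks in 65 regions at 1.5 h, 36 in 34 at 24 h). The medians and the shares scoring 100 or more are thus not fully alike as measures.

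The strongest site of the 1.5 h list had no ESC counterpart. It lay on chromosome 6 at 72166707 to 72167014, 308 bp wide, with a score of 1941.28, and a second region without an ESC peak followed 27.3 kb away at 72194359 to 72194656 (score 166.29, rank 19). The nearest ESC peak was 208.03 kb from the first, and within 50 kb of it 0 ESC peaks were listed. Neither region was called at 24 h.

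On chromosome 7 at 77502650 to 77503219, the peak of rank 3 (score 646.81, 570 bp) stood 90 bp from a LIF+serum peak of rank 4335. A second region 2833 bp away, at 77499600 to 77499816, had a score of 130.06 and rank 31. This strong primed-state call therefore adjoined a moderate naive-state call without touching it, and the LIF+BMP-4 list had its nearest peak 31868 bp away.

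Further down the 1.5 h list came regions on chromosome 2 at 151919096 to 151919489 (score 338.12, rank 6), on chromosome 12 at 85966091 to 85966476 (192.06, rank 13), on chromosome 14 at 104736179 to 104736240 (192.01, rank 14) and on chromosome 10 at 11211928 to 11212012 (174.97, rank 16). Those on chromosomes 2 and 12 were 394 bp and 386 bp wide and lay 21.5 kb and 14.7 kb from an ESC peak. Those on chromosomes 14 and 10 were only 62 bp and 85 bp wide, with the nearest ESC peak 133.47 kb and 133.82 kb away. High scores were thus found on both wide and very narrow calls.

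At 24 h the highest region without an ESC peak ranked 6. It lay on chromosome 13 at 4559114 to 4559273 (160 bp, score 121.89), 157.68 kb from an ESC peak. The next with a 24 h peak alone were on chromosome 4 at 146893598 to 146893960 (score 104.58, rank 10), chromosome 3 at 138318094 to 138318253 (99.11, rank 11), chromosome 1 at 172976787 to 172976978 (93.61, rank 13) and chromosome 11 at 52455571 to 52455741 (88.66, rank 15). Their distances to an ESC peak were 10.3 kb, 3.90 kb, 1.66 kb and 29.3 kb. The remaining regions among the 10 highest were 3 of those called at both times, a narrow one on chromosome X and a narrow one on chromosome 8, both described with their clusters.

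Narrow calls were frequent among these regions. Of the 237, 65 were 80 bp wide or less (27.4%, 21.8 to 33.6), against 20.6% of all ESD-EpiSC regions and 2 of the 89 with an ESC peak (2.25%, 0.273 to 7.88). The width limit belongs to the description of the regions and was set with these data known, so the contrast is not tested. At the limit, 3 regions were 79 bp wide, 1 was 80 bp and 1 was 81 bp. The median width was 105 bp (99 to 111) without and 159 bp (135 to 185) with an ESC peak. Width runs from the start of the first to the end of the last ESD-EpiSC peak of a region. Regions with an ESC peak could hold several such peaks with space between them (78 peaks in 65 regions at 1.5 h), and the widest spanned 1202 bp. Widths and narrow shares of the 2 groups are thus not fully alike as measures. By time, 29 of the 140 regions called at 1.5 h only (20.7%, 14.3 to 28.4) and 35 of the 90 called at 24 h only (38.9%, 28.8 to 49.7) were narrow, as was 1 of the 7 called at both.

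The score was less closely tied to width in these regions than in those with an ESC peak, by the value of the correlation. Spearman's rho between the score and width of a peak was 0.36 over 147 peaks at 1.5 h and -0.02 over 97 peaks at 24 h, against 0.61 over 78 and 0.63 over 36 peaks that lay in regions with an ESC peak. With peaks over 80 bp alone the values were 0.51 (117 peaks) and 0.30 (60 peaks), against 0.64 (76 peaks) and 0.76 (34 peaks). These are descriptions over peaks of 1 library, which share its depth and its caller settings. The plot of width against score shows the pattern: the 2 peaks over 1 kb in these regions ranked 2 and 7 at 1.5 h, while some peaks of 80 bp or less reached 192.01 at 1.5 h and 121.64 at 24 h.

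**Figure D2:**
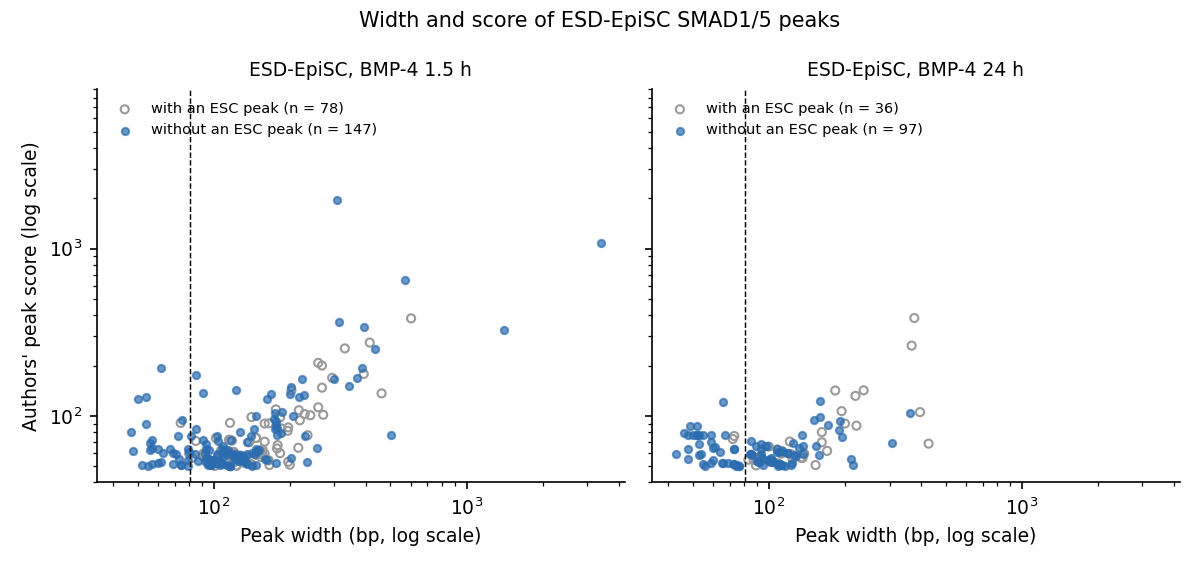
Authors' peak score (y axis, log scale) against peak width in bp (x axis, log scale) for each ESD-EpiSC peak at 1.5 h (left) and 24 h (right). Filled points lie in regions without an ESC peak (147 and 97) and open circles in regions with one (78 and 36); the dashed line marks the limit of 80 bp, left of which all but 4 points are filled.

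Some narrow peaks repeated the same score, though shared scores were not confined to narrow peaks. Of the peaks whose score another peak of their list had, 14 of 30 at 24 h and 8 of 47 at 1.5 h were 80 bp wide or less. At 24 h, 8 peaks had the identical score of 77.19, which placed them jointly at rank 22. All 8 lay in regions without an ESC peak, all were 48 bp to 67 bp wide, and 5 were on chromosome X. The others were on chromosomes 5, 14 and 17. The most frequent score of the 1.5 h list was 59.49, with 10 peaks on 8 chromosomes, of which 5 lay in regions without an ESC peak and 1 was narrow. What produced the shared value at 24 h was not tested, and reads were not analysed here.

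Regions without an ESC peak were spread from the immediate flank of an ESC peak to several megabases away. The gap to the nearest ESC peak had a median of 37.4 kb (25.1 to 52.2), with quartiles of 8.92 kb and 141.67 kb. To LIF+serum peaks the median was 94.2 kb (63.7 to 124.8), and to the more numerous LIF+BMP-4 peaks 48.2 kb (34.5 to 71.3), for the 234 regions on chromosomes with such a peak. In the shares over all ESD-EpiSC regions, an ESC peak inside a region was left out. Those shares therefore refer to the next ESC peak outside the region. A gap of 1 kb or less was found for 19 regions (8.02%, 4.90 to 12.2), against 7.98% of all ESD-EpiSC regions. A gap of 10 kb or less was found for 62 (26.2%, 20.7 to 32.2), against 29.8% of all. At the other end, 104 regions (43.9%, 37.5 to 50.5) had no ESC peak within 50 kb of their midpoint, against 40.5% of all, and 11 (4.64%, 2.34 to 8.15) lay over 1 Mb from any, against 3.37% of all. Each of these 4 shares was near that of all ESD-EpiSC regions, but the 237 make up 72.7% of that set, so nearness is partly built in. Of the 88 regions with an ESC peak and another one outside on their chromosome, none lay over 1 Mb from it. Their largest gap was 449.6 kb.

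ESD-EpiSC regions that did meet an ESC peak had the next ESC peak outside the region nearer. The median gap there was 16.1 kb (9.85 to 30.9) over 88 regions, and 35 of the 89 (39.3%, 29.1 to 50.3) had one within 10 kb. The 18385 ESC regions with a neighbour on their chromosome had a median gap of 13.6 kb to the next ESC region. The intervals of the shares within 10 kb overlapped (20.7 to 32.2 and 29.1 to 50.3), and within 100 kb they did not: 67.5% (61.1 to 73.4) without and 87.6% (79.0 to 93.7) with an ESC peak, against 73.0% of all. These intervals cover counting error over regions only, and the regions are not independent. The groups were set apart by the same ESC calls from which the gaps were measured. The rule can therefore shape this contrast by itself, and its part was not tested. The gap shares are thus a description, and no conclusion is drawn from intervals that do or do not overlap.

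**Figure D3:**
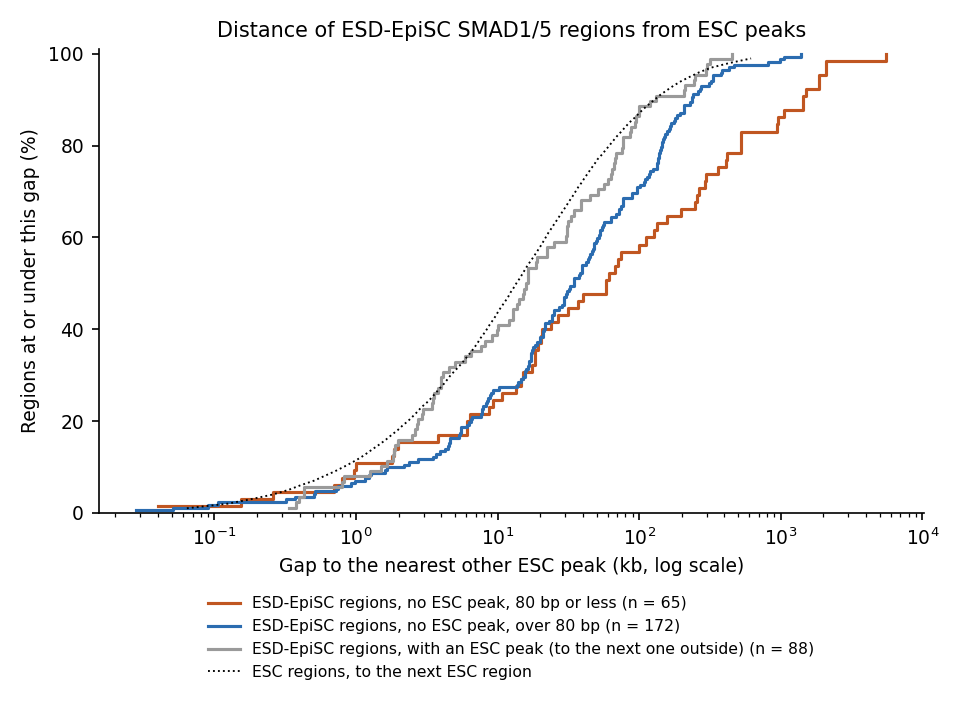
Cumulative share of regions (y axis, percent) by the gap to the nearest other ESC peak (x axis, kb, log scale). ESD-EpiSC regions without an ESC peak are split at 80 bp of width (65 and 172 regions) and set beside ESD-EpiSC regions with an ESC peak (88) and ESC regions; the medians are 58.2, 34.5, 16.1 and 13.6 kb, and on autosomes alone that of the narrow regions is 20.4 kb.

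By time, the median gap was 33.1 kb (20.4 to 47.9) for regions called at 1.5 h only and 49.8 kb (29.3 to 99.1) for those called at 24 h only. For the 7 called at both times it was 6.26 kb (0.028 to 524.52), with 5 of the 7 within 10 kb of an ESC peak (71.4%, 29.0 to 96.3). For the 10 regions with an ESC peak called at both times, the next one outside lay at a median of 24.4 kb (3.46 to 87.5). It was within 10 kb for 3 of those 10. With so few regions, no closeness particular to the 7 is read from these values. Narrow regions had a median gap of 58.2 kb (20.4 to 133.5) and wider ones of 34.5 kb (24.1 to 47.9). Over 1 Mb from an ESC peak lay 9 of the 65 narrow regions (13.8%, 6.53 to 24.7) and 2 of the 172 wider ones (1.16%, 0.141 to 4.14). Of those 9, 8 were on chromosome X, where the ESC lists hold few peaks. On autosomes alone, a split added after these values were seen, 1 of 49 narrow regions (2.04%, 0.0517 to 10.9) and 1 of 168 wider ones (0.595%, 0.0151 to 3.27) lay that far. The order of the medians also turned there, with 20.4 kb (13.6 to 58.0) for narrow and 34.5 kb (23.0 to 47.9) for wider regions, and these intervals overlapped.

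The nearest regions were just outside an ESC peak. After the chromosome 8 region at 28 bp came chromosome 5 at 64735290 to 64735363, 40 bp from a LIF+BMP-4 peak, and chromosome 4 at 140843261 to 140843379, 51 bp from one. They ranked 211 and 137 at 1.5 h. The chromosome 7 region followed at 90 bp and chromosome 11 at 120102392 to 120102514, called at 24 h (rank 108), at 106 bp. On the other side of the rule, the smallest overlap that excluded a region was 72 bp, on chromosome 10 at 14983291 to 14983391, or 71.3% of its width. The next excluded regions, of 73 bp to 83 bp, lay wholly inside an ESC peak, as did 73 of the 89 in all.

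The most distant region was on chromosome 14 at 3047664 to 3047713, called at 24 h with the repeated score of 77.19 and 5575.86 kb from an ESC peak. The next 4 were all on chromosome X. The neighbours at 53165993 to 53166040 and 53166286 to 53166338 were called at 24 h, both with a score of 77.19, and lay 2101.22 kb and 2100.92 kb away. Those at 5135370 to 5135426 (rank 201) and 32103821 to 32103889 (rank 121) were called at 1.5 h and lay 1870.66 kb and 1847.94 kb away. All 5 were between 48 bp and 69 bp wide.

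Chromosome X held 17 of the 237 regions (7.17%, 4.23 to 11.2), against 5.21% of all ESD-EpiSC regions, and each of the 17 ESD-EpiSC regions on that chromosome lacked an ESC peak. The ESC lists had 203 peaks there, 0.746% of the LIF+serum list and 0.905% of the LIF+BMP-4 list. Of the 17 regions, 16 were 80 bp wide or less, 7 were called at 1.5 h only, 8 at 24 h only and 2 at both times. The exception in width was the region of 257 bp at 12783715 to 12783971, which was also the only one of them within 10 kb of an ESC peak, at 6.26 kb. Among the 172 wider regions, 1 (0.581%, 0.0147 to 3.20) was on chromosome X, so almost all of the chromosome's share came from narrow calls.

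Chromosome 8 held the most regions, 38 of 237 (16.0%, 11.6 to 21.3), against 15.0% of all ESD-EpiSC regions and 11 of 89 with an ESC peak (12.4%, 6.33 to 21.0). Of the 38, 19 were called at 1.5 h only, 16 at 24 h only and 3 at both times, and 16 were narrow. None reached a score of 100. Without the cluster of 11 regions described below, the share was 27 of 226 (11.9%, 8.02 to 16.9). Chromosome Y held 3 regions, all called at 24 h only and 85 bp, 212 bp and 195 bp wide. The single ESC peak of that chromosome, in the LIF+serum list, was 24.9 kb from the nearest of them, and the LIF+BMP-4 list had 0 peaks there.

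**Figure D4:**
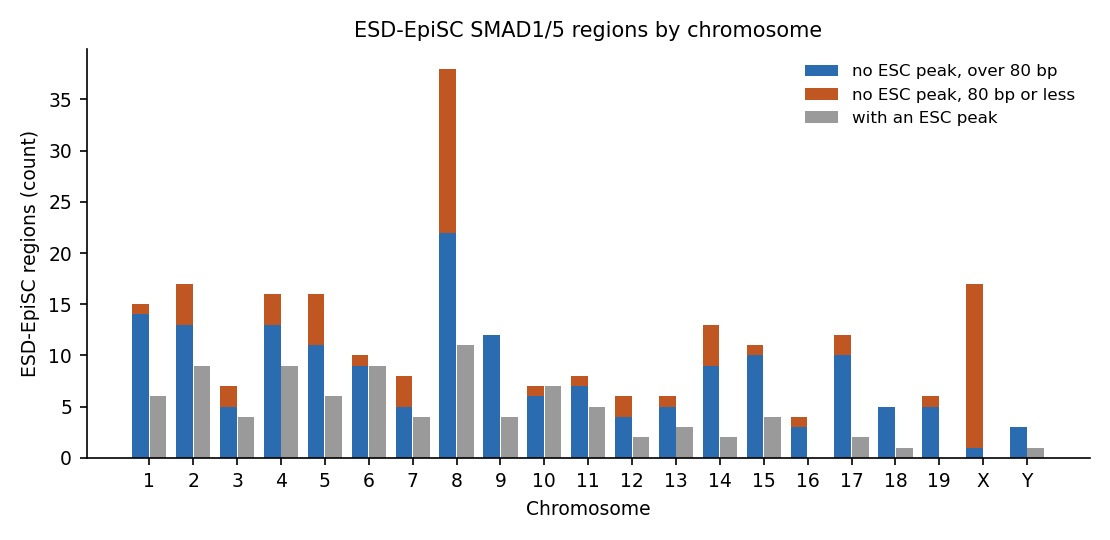
Number of ESD-EpiSC regions (y axis) on each chromosome (x axis). The left bar of each pair counts regions without an ESC peak, split into those over 80 bp and those of 80 bp or less, and the right bar counts regions with an ESC peak; chromosome 8 has 38 and 11, and chromosome X 17 and 0.

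Some of the regions were close neighbours. With a gap of 100 kb or less joining regions, 55 of the 237 (23.2%, 18.0 to 29.1) fell into 21 clusters: 18 pairs and clusters of 3, 5 and 11 regions. Counting any ESD-EpiSC region as a neighbour, 62 of the 237 (26.2%, 20.7 to 32.2) had one within 100 kb, against 21.8% of all ESD-EpiSC regions and 9 of the 89 with an ESC peak (10.1%, 4.73 to 18.3). The merging rule shapes this contrast, because ESD-EpiSC peaks that meet the same ESC peak count as 1 region. At 1.5 h, 78 peaks lay in 65 regions with an ESC peak, and 147 peaks in 147 regions without one. The peaks of the larger clusters had different shapes. Some tiled a short stretch with wide peaks of 1 time, and others scattered very narrow peaks of both times over a long one.

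On chromosome 17 the list of 1.5 h held 2 regions that tiled 5.83 kb. The first, at 39979942 to 39983328, was the widest ESD-EpiSC region of the series at 3387 bp and ranked 2 with a score of 1081.14. The second, at 39984373 to 39985775, was 1403 bp wide and ranked 7 with a score of 324.8. They were the only regions without an ESC peak over 1 kb, stood 1044 bp apart and together covered 82.1% of the stretch. Neither had a peak at 24 h, and the nearest ESC peak, 133.35 kb from the first, was a LIF+serum peak near the bottom of its list (rank 9304). As background, this part of chromosome 17 in mm9 is known to carry a copy of the ribosomal RNA precursor, a sequence that occurs in many copies in the genome. That was not read from an annotation here, and the part of repeated sequence in these 2 calls was not tested.

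A second tiled stretch lay on chromosome 5, where 5 regions followed each other between 144014833 and 144016821. All 5 were called at 1.5 h, with scores of 95.24, 249.4, 103.8, 149.89 and 169.31 from left to right and ranks of 47, 10, 39, 21 and 17. They were 173 bp, 435 bp, 174 bp, 344 bp and 367 bp wide, the gaps between them were 16 bp to 299 bp, and together they covered 75.1% of 1.99 kb. None was called at 24 h. The nearest ESC peak was 7.68 kb from the first of them and ranked 262 of 14696 in the LIF+BMP-4 list, so this group of primed-state calls lay near a strong naive-state site without meeting it. The merging rule thus counts this short stretch 5 times among the 237.

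The cluster on chromosome 8 had the opposite form. Between 19875340 and 20011868 it held 11 regions over 136.53 kb, 5 called at 1.5 h and 6 at 24 h, with none called at both. Their median width was 59 bp, from 48 bp to 176 bp, and 8 were 80 bp or less. Scores ran from 51.92 to 76.05 at 1.5 h (ranks 72 to 197) and from 58.7 to 86.57 at 24 h (ranks 17 to 76), with the highest at 20000565 to 20000616. Gaps between neighbours had a median of 12.4 kb, and together the regions covered 0.575% of the stretch. A pair of 24 h regions, at 19720076 to 19720135 and 19759543 to 19759603, preceded the first of the 11. Within the stretch were also 4 ESC regions, of which 3 had a LIF+BMP-4 peak only. The calls of the 2 times were thus interspersed along the same stretch without falling on the same places.

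On chromosome X, 3 narrow regions lay between 121283243 and 121285921. The first (49 bp) was called at 24 h with a score of 86.47 and rank 18, the second (55 bp) at 1.5 h with a score of 50.15 and rank 219, and the last (67 bp) was the region called at both times. Within 50 kb of them 0 ESC peaks were listed. A further narrow 24 h region with the score of 77.19 lay 103632 bp before the first.

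**Figure D5:**
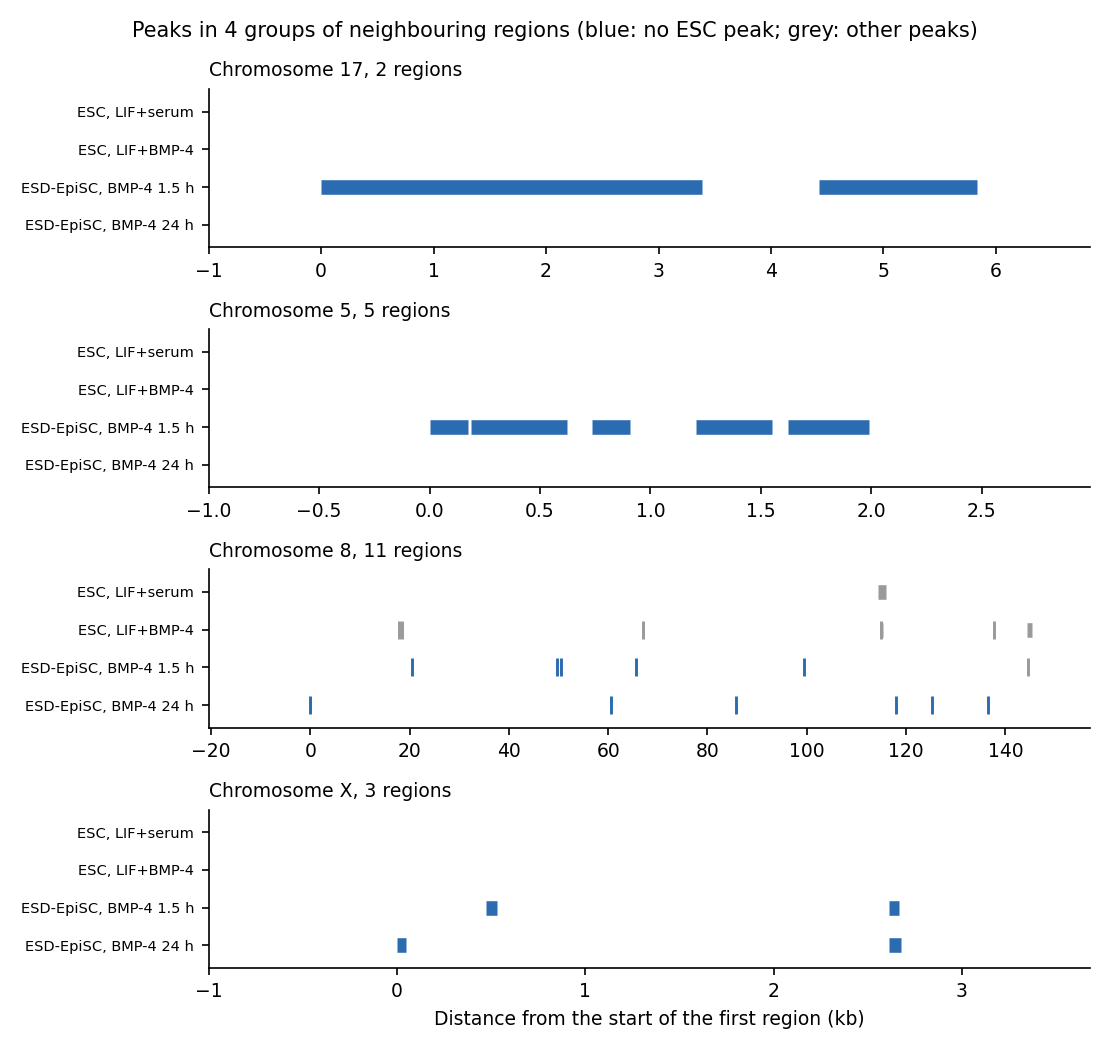
Peaks of the 4 libraries (rows) in the pair of wide regions on chromosome 17 and the clusters on chromosomes 5, 8 and X, by distance in kb from the start of the first region (x axis, a different scale in each panel). Blue marks peaks in regions without an ESC peak and grey all other peaks, and peaks too narrow to draw are shown as a tick; the chromosome 17 and 5 stretches carry 1.5 h peaks alone, while on chromosome 8 peaks of both times are interspersed.

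Of the remaining wide regions, that on chromosome 11 at 108872913 to 108873414 was 502 bp wide and ranked 67 of 225 at 1.5 h (score 77.03), 46.9 kb from an ESC peak. Single regions could thus depart from the order by width, as the chromosome 14 region of 62 bp and rank 14 shows from the other side. Over the 147 peaks at 1.5 h in these regions, score still tended to rise with width (rho 0.36).

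An ESD-EpiSC region with an ESC peak lay within 50 kb of 10 of the 237 regions (4.22%, 2.04 to 7.62), a share close to the 4.29% of all ESD-EpiSC regions. The 10 included the chromosome 2 region called at both times, 4 regions of the chromosome 8 cluster, and a region on chromosome 4 at 135703842 to 135704010, singled out after its values were seen. This 1.5 h region was 169 bp wide, had a score of 135.14 (rank 29), stood 508 bp from a LIF+serum peak and 2616 bp from an ESD-EpiSC region with an ESC peak. Its part of chromosome 4 is known to hold Id3, another BMP target of the Id family, which is again background knowledge and not an annotation used here.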

How the data were processed

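Per the labels, DNA bound by Smad1 was immunoprecipitated and sequenced. Per the submitters' processing notes, Bowtie 1.1.0, MACS 1.4.2 and Picard were involved with mm9, in roles that are not stated. For every immunoprecipitated library the authors deposited a peak list with a score per peak, none below 50.0. Not given in the sources used here are the scale of the deposited score, the control library, the read filters and the depth, so precision cannot be given per call. The 2 input libraries were not analysed here.

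Peaks were merged where they overlapped or touched. Gaps run from edge to edge, and positions are printed 1-based. Shares carry exact (Clopper-Pearson) 95% intervals, and medians exact order-statistic intervals. Both cover counting error only, over regions that are neither independent nor replicates. No test was run. Merging and gaps were tested on simulated data. Python 3.11.15, numpy 2.4.6, pandas 2.3.3, scipy 1.17.1 and matplotlib 3.10.9 were used.

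The members, the width limit and the alternatives (ESC list used, score limits, extension, overlap, chromosomes and widths kept) were chosen with earlier results of these data known. Values on autosomes alone by width were added after the values were seen. Regions named by rule are those called at both times, the 10 highest of each list, the 5 widest, nearest and farthest, and clusters of 3 or more. Beyond that rule, neighbours of such regions, other close pairs of peaks and the chromosome 4 region at 135703842 to 135704010 were named with their values known. The gene and sequence tables at hand belong to GRCm38.p6 and were not set against mm9 positions, so nearest genes, repeats, motifs and the planned list of BMP target genes were not run.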

Additional observations from a re-analysis of the deposited data

How the results depend on the processing

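No paired analysis was possible because the lists come from single libraries, and for the same reason no replicate could be left out. Of 84 planned recomputed values, 63 stayed within the 95% interval of the reported value (for counts, within 1.5 times) and 21 moved past it; no value has a test. With only ESD-EpiSC peaks scoring at least 100, 31 regions of 52 (59.6%) lacked an ESC peak, 0 were called at both times, 12.9% were 80 bp or less, the median gap was 20.4 kb, 35.5% lay within 10 kb of an ESC peak, 32.3% had another within 100 kb, 0 of 31 were on chromosome 8 and 3.23% on chromosome X. With only ESC peaks scoring at least 100, the share without an ESC peak was 82.7%, the median gap 150.66 kb and the share within 10 kb 12.8%. With the LIF+serum list alone these were 79.2%, 84.4 kb and 17.0%. Fewer ESC peaks, as in these 2 settings, cannot lower the number of regions without one (273 and 259, against 237). The share also depends on how many ESD-EpiSC regions the merging gives (330 and 327, against 326). Extension of ESC peaks by 1 kb gave 67.1% without an ESC peak and 19.7% within 10 kb. Without ESD-EpiSC peaks of 80 bp or less, 66.4% lacked an ESC peak, 17.4% had another within 100 kb and 0.581% were on chromosome X. Without chromosome 8, 4 regions were called at both times. On autosomes alone, added after the data were seen, the median gap of narrow regions fell from 58.2 kb to 20.4 kb, the lower end of its interval, and their share over 1 Mb from an ESC peak from 13.8% to 2.04%. For the settings on ESD-EpiSC scores the cause was not tested.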

Other observations

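By rank, the ESC peaks beside these regions stood near the middle of their own lists, which is where the median of any list lies. For the 62 regions within 10 kb of an ESC peak, the nearest such peak stood at a median of 45.4% from the top of its list by rank (exact interval of the median 38.1 to 53.5). Over all ESD-EpiSC regions with such a gap it was 48.1% (40.1 to 53.5, 97 regions). Some ESC peaks count more than once, as that of rank 262 does for the 5 clustered regions on chromosome 5. For the 35 regions with an ESC peak that had another one within 10 kb, the median was 51.0% (33.6 to 62.3), and the intervals overlapped.

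Close pairs of peaks from 1 time were found elsewhere too. At 24 h, peaks stood 47 bp apart on chromosome 15 (58842244 to 58842544) and 34 bp apart on chromosome 5 (111473262 to 111473534). At 1.5 h, they stood 183 bp apart on chromosome 11 (103671428 to 103671816) and 115 bp apart on chromosome 2 (173160341 to 173160704). In each of these 4 pairs both peaks were over 80 bp wide, and each pair counts as 2 regions by the merging rule.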
